A study of Mus musculus with 21 samples.

Results

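The genes described here are 10 transcription regulators of meiotic spermatocytes and post-meiotic spermatids: Mybl1, Tcfl5, Ovol1, Brdt, Rfx2, Sox30, Crem, Fhl5, Tbpl1 and Taf7l. They were chosen by name, as regulators known from germ cell biology, out of 55573 rows of an expression table of mouse testis. Earlier results of these data were known when they were chosen. All 10 had a mean of at least 1 TPM (a transcript level scaled by transcript length and by the library's total) and were among the 18977 genes tested. The libraries were made from whole testes of C57BL6 males, either wild type or carrying a knockout of Mageb4, an X-linked gene of the melanoma antigen family. Each genotype was taken without heat shock (6 wild-type and 6 knockout libraries) or 72 h after heat shock (4 wild-type and 5 knockout libraries). The labels call the libraries biological replicates. The sources used here do not give the knockout allele, the age of the animals, or how hot and how long the heat shock was.

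Male germ cells switch on stage-specific regulators as they pass through meiosis and then remodel into sperm. In pachytene spermatocytes, A-MYB (the product of Mybl1) and TCFL5 activate meiotic genes and the precursors of pachytene piRNAs, while OVOL1 is a zinc finger repressor and BRDT a testis-specific reader of acetylated histones. RFX2 and SOX30 drive genes that round spermatids need, including those of the sperm tail. CREM, helped by its LIM domain partner FHL5 (also called ACT), activates spermatid genes such as those for transition proteins and protamines. Tbpl1 and Taf7l encode germ-cell-enriched relatives of the general factors TBP and TAF7, which place RNA polymerase II at promoters. Late spermatocytes and round spermatids are among the cells most easily lost after a testis is heated.

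The Mageb4 transcript matched the labels. Without heat it stood at 1.80 ± 0.173 TPM (SD, n = 6) in the wild type, against 0.0467 ± 0.0361 TPM (n = 6) in the knockout, and after heat at 8.03 ± 0.222 TPM (n = 4) against 0.12 ± 0.0224 TPM (n = 5). The libraries held 17243 to 18547 genes at 1 TPM or more. One heated wild-type library, replicate 3, held 2126 TPM of Crisp1, an epididymal gene listed at 3.81 TPM or less in each of the other 20, and another, replicate 1, had the highest level of Fhl5 and of Sox30 in its group. Leaving out both changed no member's call in any of the 5 comparisons.

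Promoter sequences were available for 7 of the 10 genes from RefSeq (GRCm38, the assembly also called mm10). Those of 4 genes are shown, Rfx2, Sox30 and Tcfl5, which fell after heat, and Taf7l, which rose. Fhl5, Tbpl1 and Brdt, which also fell in wild type, are not shown, so the 4 do not link motifs to direction. Each run gives up to 250 bases before the start site on the gene's own strand, without bases that GENCODE M21 places inside the gene. Capitals mark letters that match a motif.
Rfx2 promoter, chr17:56831014-56831258, minus strand: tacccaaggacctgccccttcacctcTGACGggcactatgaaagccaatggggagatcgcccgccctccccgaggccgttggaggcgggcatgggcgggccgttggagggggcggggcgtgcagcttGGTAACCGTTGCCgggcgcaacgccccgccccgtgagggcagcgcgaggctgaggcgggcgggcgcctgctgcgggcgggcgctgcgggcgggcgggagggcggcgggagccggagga
Sox30 promoter, chr11:45980060-45980309, plus strand: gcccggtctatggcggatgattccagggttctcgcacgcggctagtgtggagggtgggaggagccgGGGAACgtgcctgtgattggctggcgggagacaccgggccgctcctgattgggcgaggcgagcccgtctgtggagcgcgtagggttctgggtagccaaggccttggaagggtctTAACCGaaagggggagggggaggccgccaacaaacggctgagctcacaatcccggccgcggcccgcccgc
Tcfl5 promoter, chr2:180642709-180642941, minus strand: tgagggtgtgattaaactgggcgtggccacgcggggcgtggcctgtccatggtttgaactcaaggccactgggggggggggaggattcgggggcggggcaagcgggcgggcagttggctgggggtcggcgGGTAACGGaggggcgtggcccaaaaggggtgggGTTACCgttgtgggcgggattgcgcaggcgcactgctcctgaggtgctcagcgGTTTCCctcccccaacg
Taf7l promoter, chrX:134476491-134476740, minus strand: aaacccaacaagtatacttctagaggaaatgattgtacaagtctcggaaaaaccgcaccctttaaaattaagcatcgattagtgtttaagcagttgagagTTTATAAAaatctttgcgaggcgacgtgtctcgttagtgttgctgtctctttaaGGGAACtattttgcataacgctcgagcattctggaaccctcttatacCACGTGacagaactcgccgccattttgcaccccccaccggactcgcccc

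The motifs were searched on both strands of the 250 bases before each start. TAACNG, the core that MYB proteins bind (read on the other strand, CNGTTA, it also resembles an OVOL site), was present in the windows of 4 members, Rfx2, Sox30, Tcfl5 and Fhl5, and in 19.8% of 32851 RefSeq promoters. GTTNCC, the core of an RFX site, was present in 5 members, the same genes and Taf7l, and in 39.4% of all promoters. Fhl5 alone had windows for 2 starts, so its count is not like the rate per promoter. Its TAACNG and GTTNCC matches lie only in the window of start 2, which falls inside the GENCODE gene. In Rfx2 and Tcfl5 the TAACNG and GTTNCC matches overlap. In Rfx2 the joined run GGTAACCGTTGCC begins 123 bases before the start, and it holds 2 RFX cores on opposite strands. TGACG, part of the cAMP response element TGACGTCA that CREM binds, was present in Rfx2 and in 17.8% of all promoters, and the full element in none of the 7 and in 1.55% of all. CACGTG, a palindromic E-box, was present in Brdt and Taf7l (6.02% of all), and TATAAA in Taf7l (12.4% of all). ACAATG, a SOX core, was present in none of the 7 and in 10.7% of all. Tbpl1, which fell after heat, matched none of these motifs, and Brdt, which also fell, matched only the E-box that Taf7l holds. A match is a run of letters and was not tested for binding.

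Heat lowered 9 of the 10 regulators in wild-type testis and raised Taf7l. In the knockout, heat lowered 8, raised Taf7l and did not move Fhl5 past the test. After heat, 8 of the 10 stood higher in the knockout than in wild type, Taf7l stood lower, and Mybl1 did not pass the test. Without heat, no member passed the test between the genotypes.

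These counts stand against a testis in which most genes changed. In wild type, 91.6% of the 18977 genes tested were called after heat, with 44.6% lower and 47% higher. In the knockout, 82.8% were called, with 41.5% lower and 41.3% higher. Between the genotypes after heat, 83.5% were called, with 34.4% higher in the knockout and 49% lower. For the difference of the heat effects, 80.7% were called, with 33.2% positive, meaning a smaller fall or a larger rise in the knockout, and 47.6% negative. The heated and unheated libraries did not overlap for 10 members in wild type (9 lower, 1 higher), beside 42% of all genes lower and 44.5% higher, and for 9 in the knockout (8 lower, 1 higher), beside 35.8% lower and 33.9% higher. Between the heated genotypes they did not overlap for 9 members (8 higher in the knockout, 1 lower), beside 29.9% higher and 42.5% lower. The median log2 difference of the 10 members was -2.27 after heat in wild type, beside 0.06 over all genes. It was -0.97 beside 0.0066 in the knockout and 0.69 beside -0.20 for knockout against wild type after heat. In whole testis, fewer cells of a type and less RNA per cell cannot be told apart.

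**Figure D1:**
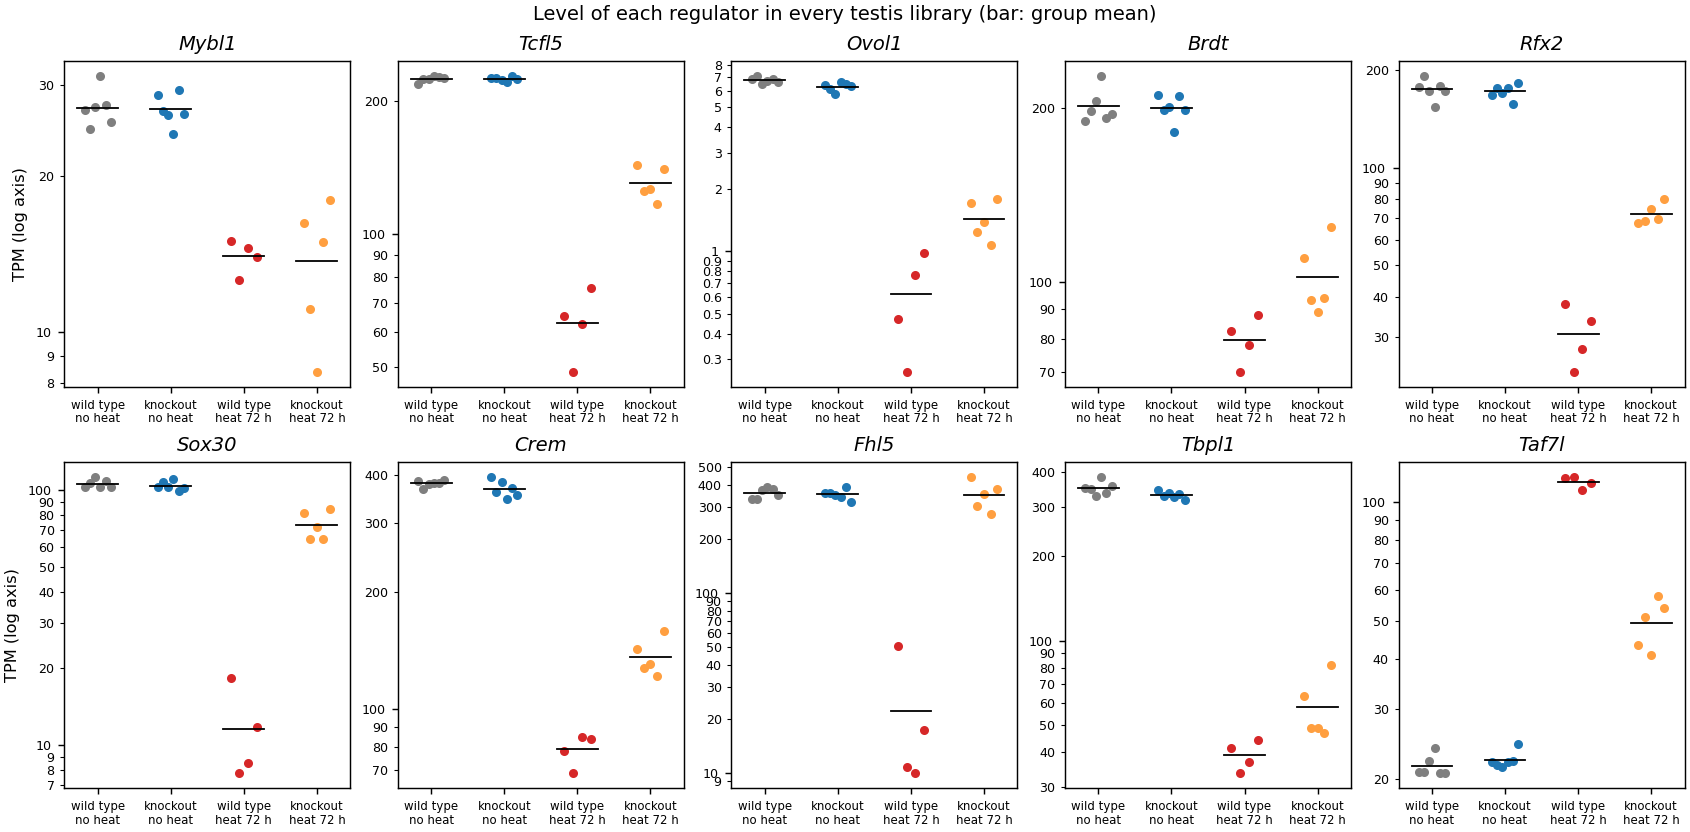
TPM of each regulator in every library, on a log axis, in the 4 groups. Points are libraries and bars are group means. The unheated genotypes lie together for every gene, 9 genes are lower in heated wild type, Taf7l is higher, and Fhl5 in the heated knockout lies at its unheated level.

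Among the regulators that act in spermatocytes, Mybl1 changed by about the same amount in both genotypes. Mybl1 (chr1:9667415-9700209, minus strand, mm10) had a lowest, median and highest level of 24.66, 27.025 and 31.23 TPM in unheated wild type and of 24.13, 26.56 and 29.3 TPM in the unheated knockout. The 4 heated wild-type libraries held 14.99, 12.62, 14.56 and 14.0 TPM, and the 5 heated knockout libraries 16.25, 11.1, 8.38, 14.96 and 18.02 TPM. Every heated library lay below every unheated one, and the heated genotypes overlapped, with the widest spread in the knockout. The mean fell 1.93-fold in wild type (log2 difference -0.90, SE 0.135, adjusted p = 1.84e-06) and 1.96-fold in the knockout (-0.96, adjusted p = 4.25e-07). The difference of the heat effects was -0.06, with a 95% interval from -0.45 to 0.32 (adjusted p = 0.763). The estimates of the other 9 members all lie outside that interval, but the interval of Brdt, from 0.12 to 0.59, overlaps it. No test between members was run.

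Tcfl5, a basic helix-loop-helix factor of pachytene spermatocytes, fell by less in the knockout. Unheated libraries were tight, at 218.6, 224.9 and 228 TPM (lowest, median, highest) in wild type and 221, 224.6 and 228 TPM in the knockout. Heated wild type held 65.47, 48.78, 62.83 and 75.59 TPM, and the heated knockout 143.09, 125.16, 126.75, 117.15 and 140.11 TPM. The unheated, heated knockout and heated wild-type libraries formed separate levels with no overlap. The fall was 3.56-fold in wild type (log2 difference -1.83, SE 0.079) and 1.72-fold in the knockout (-0.78), and the effects differed by 1.05 (adjusted p = 3.28e-08).

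Ovol1 was the lowest of the 10 genes in unheated testis. It stood at 6.46, 6.77 and 7.07 TPM in wild type and 5.79, 6.37 and 6.59 TPM in the knockout. After heat the wild-type libraries held 0.47, 0.26, 0.77 and 0.98 TPM and the knockout libraries 1.71, 1.24, 1.38, 1.07 and 1.8 TPM. The heated genotypes did not overlap, but the gap between 0.98 and 1.07 TPM was small beside the spread within each. The mean fell 10.9-fold in wild type and 4.36-fold in the knockout (adjusted p = 3.09e-15 and 2.22e-12). The difference of the heat effects was 0.70 (adjusted p = 1.10e-04), and under quantile normalization it missed the threshold (0.26, adjusted p = 0.0549), as did the difference between the heated genotypes (0.60 against 0.09, adjusted p = 0.356). The log2(TPM + 1) scale compresses levels near 1 TPM, which is where both heated groups of Ovol1 lie.

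Brdt, the bromodomain protein that compacts acetylated chromatin in spermatids and acts already in spermatocytes, fell moderately in both genotypes. Its unheated levels were 189, 196 and 227 TPM in wild type and 182, 199 and 210 TPM in the knockout. Heated wild type held 82.35, 70.01, 78.04 and 87.76 TPM, and the heated knockout 109.93, 93.12, 88.9, 93.96 and 124.69 TPM. The lowest knockout library stood just above the highest wild-type one. Brdt fell 2.53-fold in wild type and 1.96-fold in the knockout, and the effects differed by 0.36 (SE 0.113, adjusted p = 0.00675), the smallest difference among the members that passed.

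Rfx2 and Sox30, which act around the entry into the round spermatid stage, fell further than Mybl1, Tcfl5 and Brdt in wild type. By fold change Ovol1 fell further than both (10.9-fold), though not on the log2(TPM + 1) scale (-2.28). Rfx2 stood at 154, 175.7 and 192 TPM in unheated wild type and 158, 174 and 183 TPM in the unheated knockout. The heated wild-type libraries held 38.13, 23.41, 27.71 and 33.75 TPM, and the heated knockout libraries 67.54, 68.65, 74.55, 69.41 and 80.34 TPM. No library of one heated genotype reached the other. Rfx2 fell 5.69-fold in wild type (log2 difference -2.49, SE 0.094) and 2.39-fold in the knockout (-1.25), a difference of 1.24 (adjusted p = 3.84e-08).

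Sox30 showed a wider gap between the genotypes. Its unheated levels were 102, 104.8 and 113 TPM in wild type and 99.3, 102.8 and 110 TPM in the knockout. After heat, wild type held 18.38, 7.75, 8.49 and 11.75 TPM and the knockout 81.49, 64.37, 71.5, 64.4 and 84.32 TPM. The heated genotypes were far apart, and all heated knockout libraries lay below all unheated ones. The mean fell 9.14-fold in wild type (log2 difference -3.16, SE 0.144, adjusted p = 4.85e-15) and 1.42-fold in the knockout (-0.51, SE 0.135, adjusted p = 0.00157). Quantile normalization ended the call in the knockout (-0.20, adjusted p = 0.134). The effects differed by 2.65 (adjusted p = 5.78e-10).

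Crem and Fhl5 encode proteins that work as a pair, and their transcripts parted after heat. Crem stood at 368, 380.2 and 387 TPM in unheated wild type and 347, 365 and 394 TPM in the unheated knockout. Heated wild type held 78.37, 68.49, 85.02 and 84.06 TPM, and the heated knockout 142.6, 127.35, 130.72, 121.82 and 159.08 TPM. The 3 levels did not overlap. Crem fell 4.81-fold in wild type (log2 difference -2.26, SE 0.067) and 2.70-fold in the knockout (-1.43), and the effects differed by 0.82 (adjusted p = 9.30e-08). The table gives 1 value for the gene, which pools its activator and repressor isoforms.

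Fhl5 (chr4:25199908-25242876, minus strand, mm10) had the largest difference between the heat effects of any member. Unheated levels were 332, 363 and 389 TPM in wild type and 321, 354 and 391 TPM in the knockout. Heated wild type held 50.97, 10.87, 9.99 and 17.42 TPM, while the heated knockout held 442.24, 303.4, 353.62, 276.08 and 378.09 TPM. The heated knockout libraries spanned the unheated range on both sides. In wild type the mean fell 16.1-fold (log2 difference -4.26, SE 0.270, adjusted p = 1.37e-12), and 28.2-fold without replicate 1, whose level of 50.97 TPM was the highest of the 4. In the knockout the log2 difference was -0.03, with a 95% interval from -0.56 to 0.50 (adjusted p = 0.914). The heat effects differed by 4.23 (95% interval 3.46 to 5.00, adjusted p = 4.47e-09). After heat the knockout mean was 15.7-fold above wild type, or 27.5-fold without that replicate. The SE and intervals of Fhl5 rest on a spread pooled over all 4 groups, which varied unequally. After heat the SD was 86.9% of the mean TPM in wild type, beside 18.6% in the knockout. Without heat it was 6.67% and 6.48%. The SE and interval that involve heated wild type are thus likely too narrow, and the interval of the knockout heat effect too wide.

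Tbpl1, which encodes a relative of the TATA-binding protein needed for spermatid development, fell steeply in both genotypes. It stood at 328, 347 and 383 TPM in unheated wild type and 316, 330.2 and 344 TPM in the unheated knockout. Heated wild type held 41.4, 33.69, 36.95 and 44.18 TPM, and the heated knockout 63.51, 48.8, 48.7, 47.05 and 81.85 TPM. All knockout libraries were above all wild-type libraries after heat, 3 of the 5 by a small margin. Tbpl1 fell 8.94-fold in wild type and 5.70-fold in the knockout, the deepest fall of the 10 members in that genotype (adjusted p = 1.82e-14). The effects differed by 0.61 (adjusted p = 0.00117).

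Taf7l, an X-linked relative of the TFIID subunit Taf7 (chrX:134460118-134476490, minus strand, mm10), was the member that rose. Unheated levels were 20.65, 20.8 and 23.9 TPM in wild type and 21.4, 22.0 and 24.4 TPM in the knockout. Heated wild type held 114.62, 115.37, 107.05 and 111.59 TPM, and the heated knockout 43.43, 51.13, 41, 57.73 and 53.98 TPM. The 3 levels were again separate, in the reverse order. Taf7l rose 5.21-fold in wild type (log2 difference 2.33, SE 0.076) and 2.22-fold in the knockout (1.10), and the effects differed by -1.22 (adjusted p = 3.06e-09). Taf7l2, a near copy on chromosome 10 that was chosen after its values were seen, fell in wild type, from 164 to 35.8 TPM, and in the knockout, from 169 to 48.5 TPM. The counting could split reads between these copies, so their levels are uncertain.

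**Figure D2:**
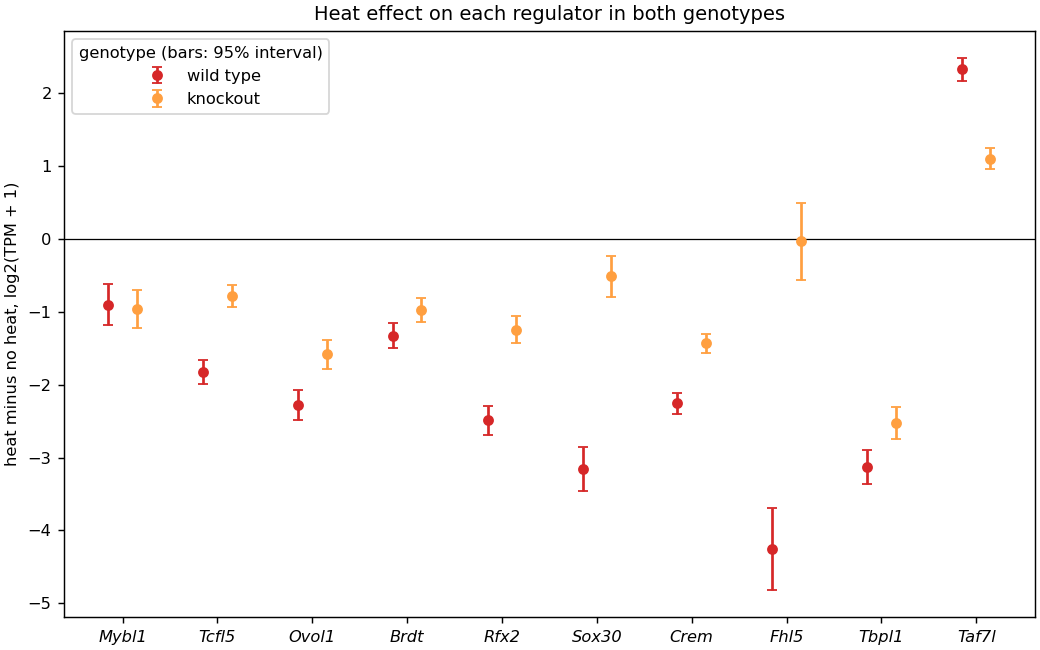
Heat effect on each regulator as the log2(TPM + 1) difference between heated and unheated libraries, in wild type and in the knockout, with 95% intervals. The 2 intervals overlap for Mybl1, and that of Fhl5 in the knockout spans 0.

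Order among the members other than Taf7l, which rose, differed by genotype. By the share of the unheated mean left after heat in wild type, Fhl5 was lowest at 6.2%, followed by Ovol1 at 9.17%, Sox30 at 10.9%, Tbpl1 at 11.2%, Rfx2 at 17.6%, Crem at 20.8%, Tcfl5 at 28.1%, Brdt at 39.6% and Mybl1 at 51.7%. The shares come from the same 4 libraries, so neighbours were compared within each. Tbpl1 lay below Rfx2, Crem below Tcfl5, Tcfl5 below Brdt and Brdt below Mybl1 in 4 of 4 libraries. The order of Fhl5 and Ovol1, of Sox30 and Tbpl1, and of Rfx2 and Crem held in 3 of 4, and that of Ovol1 and Sox30 in 2 of 4. Of pairs further apart, Fhl5 lay below Tbpl1 in 3 of 4 and Ovol1 below Tbpl1 in 2 of 4. These places are not settled by the libraries. In the knockout the order began with Tbpl1 at 17.6% and Ovol1 at 22.9% and went on through Crem at 37.0%, Rfx2 at 41.9%, Mybl1 and Brdt at 51.1% each, Tcfl5 at 58.1%, Sox30 at 70.4% and Fhl5 at 99.0%. Here each pair of neighbours kept its order in 5 of 5 libraries, except Rfx2 and Mybl1 (4 of 5) and Mybl1 and Brdt (2 of 5). Mybl1 also lay above Crem in 4 of 5 and below Tcfl5 in 3 of 5, so its place is not settled. Among these members, with Taf7l left out, Fhl5 thus had the lowest mean share in wild type and the highest share in each heated knockout library.

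**Figure D3:**
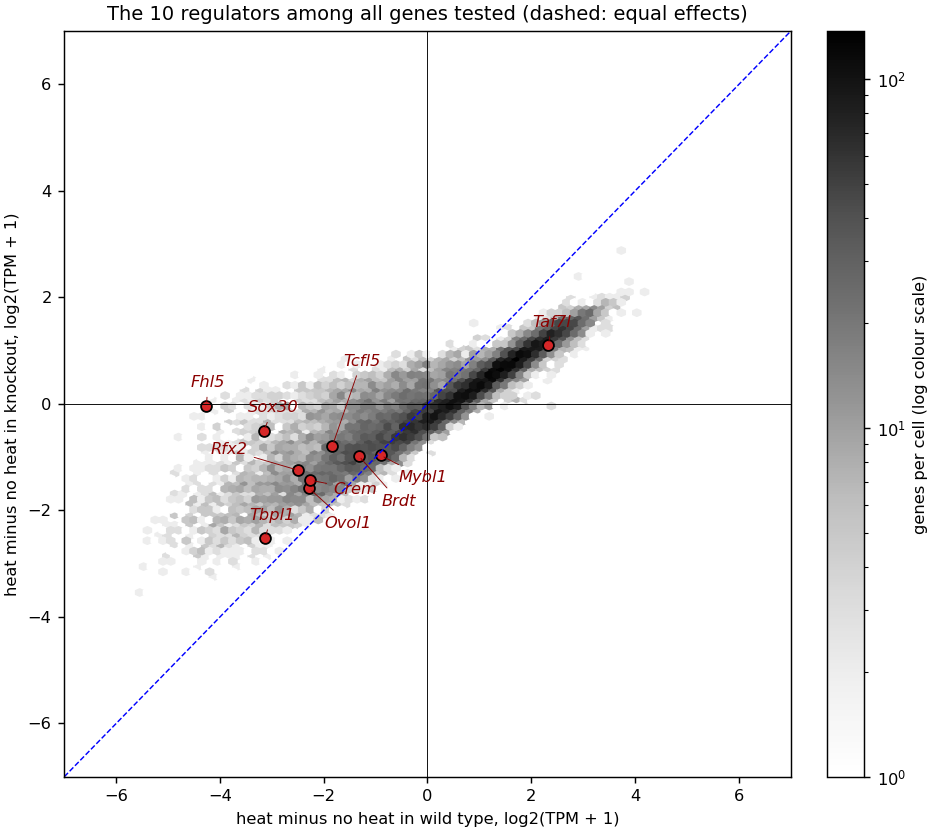
Heat effect in wild type (x axis) against heat effect in the knockout (y axis), both as log2(TPM + 1) differences, for all genes tested (grey cells, darker with more genes on a log colour scale) and the 10 regulators (red). Mybl1 lies beside the dashed line of equal effects (difference -0.06), and Sox30 (2.65) and Fhl5 (4.23) lie farthest above it.

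Between the unheated genotypes no member passed the test. The largest log2 difference in size was -0.09, for Ovol1, with a 95% interval from -0.28 to 0.09, and adjusted p-values ran from 0.727 to 0.999. The widest interval was that of Fhl5, from -0.53 to 0.48. These intervals use a spread shared by all 4 groups, so they do not measure that of the unheated libraries alone. For Fhl5 the SD was 86.9% of the mean in heated wild type, beside 6.67% and 6.48% in the unheated wild type and knockout. With only the unheated groups fitted, no member was called either. Of the 10, 0 had an unadjusted p under 0.05 in limma, and the libraries of the genotypes overlapped for each. Over all genes, 1.33% were called in this comparison (1.25% higher in the knockout and 0.0843% lower), and the libraries did not overlap for 4.33% (higher) and 0.643% (lower).

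Ratios within a library compare each regulator with a broadly expressed relative, as log2 of (TPM + 1) ratios. Taf7l over Taf7 was 1.18 ± 0.0466 (SD, n = 6) in unheated wild type, 1.16 ± 0.0800 in the unheated knockout, 2.49 ± 0.102 after heat in wild type, and 1.89 ± 0.158 after heat in the knockout. Each heated group stood above both unheated groups and apart from the other. Taf7 itself rose in wild type, from 8.92 to 19.1 TPM (log2 difference 1.02), and in the knockout, from 9.44 to 12.5 TPM (0.37).

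Tbpl1 over Tbp moved the opposite way. It was 1.23 ± 0.0416 without and -0.04 ± 0.106 with heat in wild type, and 1.20 ± 0.0447 and 0.45 ± 0.202 in the knockout, and the heated groups overlapped. Tbp, which encodes the TATA-binding protein, fell in both genotypes, from 148 to 40.0 TPM and from 143 to 41.6 TPM, and its heat effects differed by 0.09 (95% interval -0.16 to 0.34, adjusted p = 0.499).

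Crem lost ground to a relative found in most cells. The log2 ratio of Crem over Creb1, the broadly expressed factor of the same family, was 5.53 ± 0.0813 and 5.44 ± 0.0963 without heat, 2.45 ± 0.247 after heat in wild type, and 4.03 ± 0.314 after heat in the knockout. Creb1 rose from 7.27 to 13.6 TPM in wild type and stood at 7.53 and 7.51 TPM in the knockout (adjusted p = 0.833).

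Rfx2 over Rfx3, a factor of ciliated cells, was 2.74 ± 0.144 and 2.80 ± 0.117 without heat and 1.92 ± 0.110 and 1.94 ± 0.128 after it, so the heated genotypes shared a range. Rfx3 fell in wild type, from 25.2 to 7.31 TPM, and in the knockout, from 23.8 to 18.1 TPM. Mybl1 over Mybl2 ranged widely, at 2.20 ± 0.583 in the heated knockout and 2.12 ± 0.241 in heated wild type, and all groups overlapped another. Mybl2, the B-MYB gene, fell by like amounts (log2 differences -1.33 and -1.32, difference 0.01, 95% interval -0.33 to 0.35). For the protein pair, Fhl5 over Crem was -0.08 and -0.06 without heat, -2.08 ± 1.03 after heat in wild type, and 1.34 ± 0.184 after heat in the knockout. The transcript of the partner was thus below that of Crem in all 4 heated wild-type libraries and above it in all 5 heated knockout libraries.

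**Figure D4:**
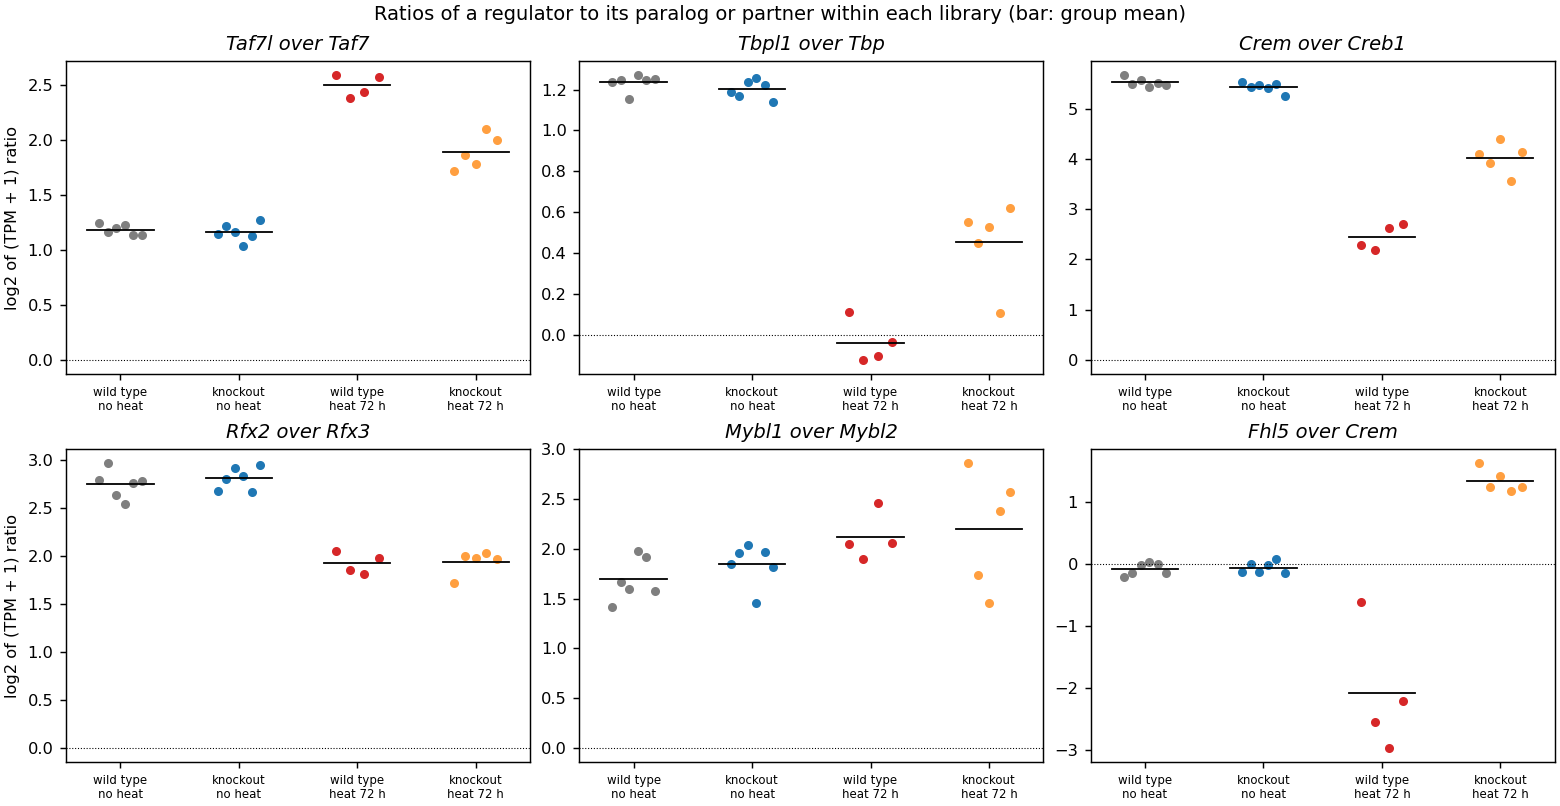
Log2 ratio of (TPM + 1) between a regulator and its paralog or partner in every library, by group; bars are group means. Fhl5 over Crem is -2.08 after heat in wild type and 1.34 after heat in the knockout, while Rfx2 over Rfx3 is alike in the heated genotypes.

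Of the 15 broadly expressed paralogs tested (Myb was under the filter), 7 rose and 8 fell after heat in wild type, and 5 rose and 9 fell in the knockout. Ovol2, the paralog of Ovol1, fell to 0.94 from 43.4 TPM in wild type, and to 3.83 from 41.3 TPM in the knockout (log2 differences -4.58 and -3.19), a steeper fall than that of any member in the knockout. Rfx1 fell (-2.70 and -1.36), as did Brd3 (-1.59 and -1.12), Atf1 (-0.97 and -0.59) and Brd2 (-0.61 and -0.98). The LIM domain genes Fhl1 and Fhl2, relatives of Fhl5 that are known from muscle and other somatic cells, rose in both genotypes: Fhl1 from 8.89 to 55.1 TPM and from 11.2 to 27.2 TPM, and Fhl2 from 7.17 to 35.8 TPM and from 8.82 to 25.8 TPM. Fhl3 rose too (0.83 and 0.47), and so did Rfx7 (1.21 and 0.34). Rfx5 rose by 0.26 in wild type, a call lost under median-of-ratios scaling and quantile normalization, and fell by 0.24 in the knockout, a call lost when mitochondrially encoded genes were left out of the TPM (-0.23, adjusted p = 0.0529 in limma).

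Among partners and other regulators of spermatogenesis, 18 were tested, of which 12 fell and 4 rose after heat in wild type (median log2 difference -1.18) and 11 fell and 6 rose in the knockout (-0.62), or 10 and 7 there under quantile normalization. Between the heated genotypes 13 stood higher in the knockout and 2 lower. Gtf2a1l, the germ cell form of a TFIIA subunit, had the largest fall in wild type, from 285 to 9.03 TPM, and went from 283 to 88.6 TPM in the knockout. Its heated wild-type mean rests on replicate 1 at 20.36 TPM, without which it is 5.25 TPM. Sox5 fell from 148 to 8.20 TPM and from 148 to 31.3 TPM, and Rfx4 from 90.01 to 4.76 TPM and from 92.4 to 23.0 TPM. Kctd19, a meiotic partner of ZFP541, fell from 251 to 29.4 TPM and from 249 to 56.6 TPM. Dmrt1 and Taf4b rose the most in wild type, from 11.01 to 36.2 TPM and from 5.64 to 16.1 TPM. Spz1 rose in both genotypes (log2 differences 0.33 and 0.66), a call lost in wild type under quantile normalization. Camk4, a kinase gene of spermatids chosen here after its values were seen, resembled Fhl5 in that it fell in wild type, from 48.4 to 17.6 TPM, and did not pass the test in the knockout, at 47.6 and 48.3 TPM (0.02, 95% interval -0.14 to 0.17). Under quantile normalization Camk4 rose in the knockout (0.25, adjusted p = 0.00652 in limma).

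**Figure D5:**
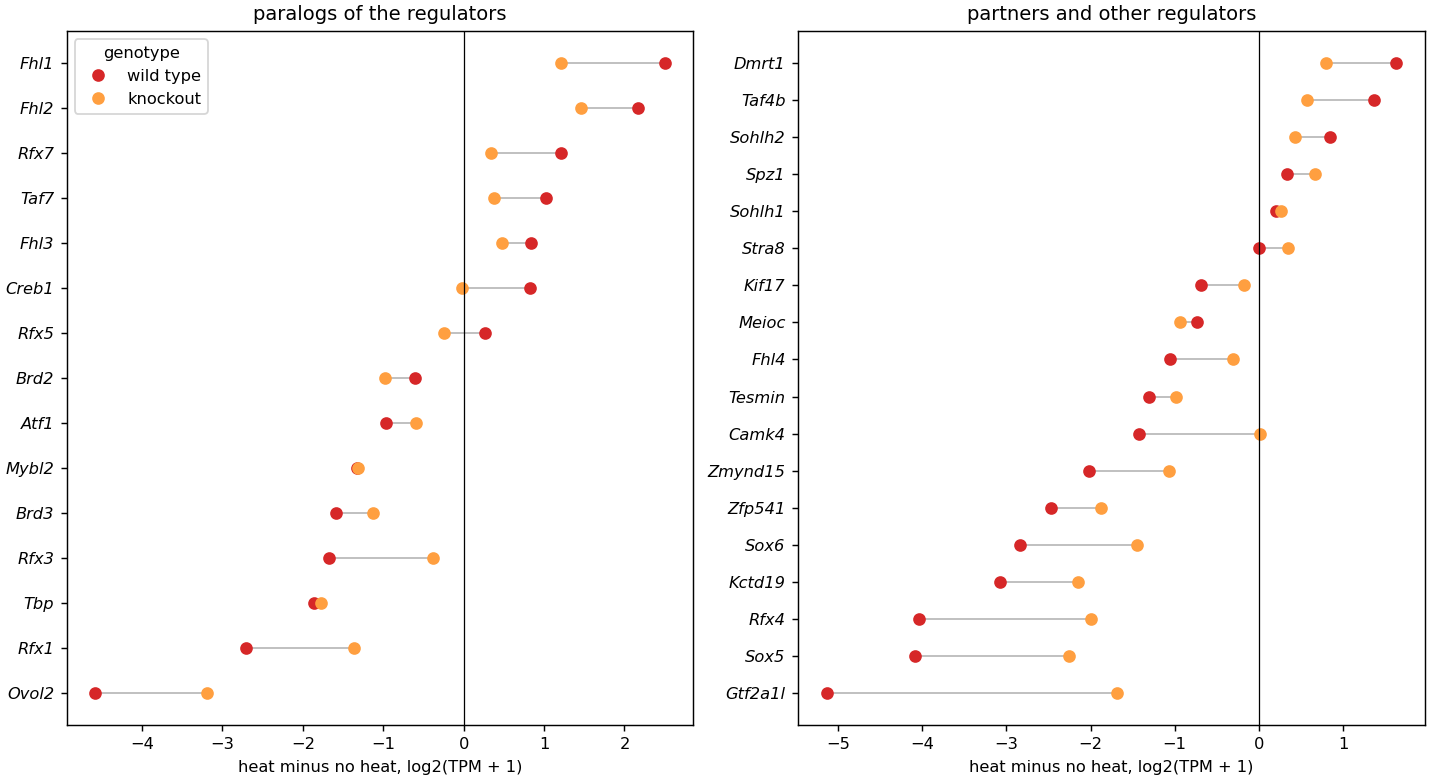
Heat effect, as the log2(TPM + 1) difference, in wild type (red) and in the knockout (orange) for the paralogs of the regulators (left) and for their partners and other spermatogenic regulators (right). Ovol2 and Gtf2a1l have the largest falls in wild type, and the Camk4 point of the knockout lies at 0.02.

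The 31 genes of the general RNA polymerase II machinery split in direction. After heat 19 rose and 10 fell in wild type (median log2 difference 0.28), and 9 rose and 17 fell in the knockout (-0.22). Median-of-ratios scaling, which moved all genes in wild type by -0.13, left 14 rises and 10 falls there. Under quantile normalization 11 rose and 12 fell in the knockout (median -0.02), so the larger number of falls there depends on the scaling. Taf1, the largest TFIID subunit, rose to 21.6 from 5.07 TPM in wild type, and to 10.74 from 4.95 TPM in the knockout, and Polr2h from 9.66 to 45.1 TPM and from 11.6 to 28.8 TPM. Taf9 fell from 683 to 151 TPM and from 689 to 268 TPM, and Gtf2e2 from 244 to 70.3 TPM and from 240 to 75.9 TPM. Gtf2f1 stood higher in the heated knockout than in heated wild type (93.1 against 55.4 TPM) and Gtf2e1 lower (22.0 against 36.3 TPM). Without heat, Polr2k alone of the 31 passed the test (log2 difference 0.24, adjusted p = 0.0496), a call lost under each of the 3 other scalings (adjusted p of 0.0515 to 0.108 in limma).

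Genes that depend on the members, as known from knockouts of those regulators, were examined by list. All 7 tested genes of the RFX2 list fell in both genotypes (median log2 difference -4.28 in wild type and -2.35 in the knockout) and all 7 stood higher in the heated knockout than in heated wild type. Under quantile normalization 6 of the 7 did, and Hist1h1t, a testis linker histone gene, lost the call (0.46 against -0.07, adjusted p = 0.585 in limma). Gtf2a1l is among the 7. Tekt4, a gene of the sperm tail, fell from 217 to 3.73 TPM (1.97 TPM without replicate 1, at 9.03 TPM) and from 214 to 24.0 TPM. Of 8 genes of the A-MYB list, 7 fell and 1 rose in wild type (median -2.81), and all 8 fell in the knockout (-1.17), or 7 there under quantile normalization. Tdrd6 fell from 397 to 12.7 TPM and from 369 to 62.2 TPM, Ccna1, the germline cyclin, from 147 to 8.63 TPM and from 138 to 19.6 TPM, and Piwil1, which binds piRNAs, stood at 15.7 TPM in heated wild type (9.84 TPM without replicate 4, at 33.28 TPM) and 70.05 TPM in the heated knockout. Mov10l1, the helicase of piRNA biogenesis, was the gene that rose in wild type, from 39.3 to 55.9 TPM, and its fall in the knockout (-0.25) was the call lost under that normalization (-0.06, adjusted p = 0.407 in limma). Between the heated genotypes, 7 of these 8 genes stood higher in the knockout and 1 lower, beside 34.4% and 49% of all genes. Mybl1 did not pass that test, and how its level bears on these genes was not tested. Of 9 markers of pachytene and diplotene spermatocytes, which include Ccna1 and Piwil1, 8 also stood higher in the heated knockout.

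The CREM list behaved otherwise. Of its 8 genes, 5 fell and 3 rose after heat in wild type (median log2 difference -0.76). In the knockout 7 rose and none fell (0.67). Most genes of this list are also among the elongating spermatid markers given below. Crem itself fell in both genotypes, and how its level bears on these genes was not tested. Tnp1 and Tnp2, which encode the transition proteins, fell in wild type from 12448 to 2704 TPM and from 7701 to 1741 TPM, and their knockout means were 12274 and 18948 TPM, and 7570 and 10887 TPM, without and with heat. Odf1 and Smcp, genes of the sperm tail and its mitochondria, rose in wild type (0.68 and 0.62) and in the knockout (0.75 and 0.77). These directions depend on the scaling: under quantile normalization 7 fell and none rose in wild type, and 3 rose and 1 fell in the knockout, Smcp fell in wild type (-0.27), and the rise of Odf1 there was no longer called (0.08).

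For each member the genes with the most similar profile were found. The measure was the root mean square difference over the 21 libraries of log2(TPM + 1), with each gene set relative to its unheated wild-type mean. For Fhl5 the nearest were Hemgn (0.109) and Cypt4 (0.116), and Cypt4 stood at 947 and 937 TPM without heat (wild type, knockout) and at 66.6 and 842 TPM after it. For Sox30 they were Sncaip (0.0955) and Dpysl3 (0.109), and for Crem Cdkal1 (0.0745) and Nop9 (0.0773). Rfx2 was nearest to Thop1 and Ptdss2, Tcfl5 to Rangrf and March10, Brdt to Tex14 and Larp1, Mybl1 to Pcm1 and Lcorl, and Taf7l to Tgoln1 and Avl9. In these 8 pairs of genes the wild-type fold change was within 1.43 times that of the member. It was not so for Ovol1 and Tbpl1, since log2(TPM + 1) compresses levels near 1 TPM. The nearest to Ovol1, Cfap36 and Ptchd3, fell 4.72-fold and 5.25-fold in wild type beside 10.9-fold for Ovol1. The nearest to Tbpl1, Shisa3 and Pkdrej, fell 20.5-fold and 16.6-fold to levels near 1 TPM, beside 8.94-fold for Tbpl1. Among the members Fhl5 was nearest to Sox30 (0.580), and Taf7l was the farthest from each of the other 9. These are descriptions of the same 21 libraries, in which most genes moved with heat.

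Markers of the cells that carry these regulators moved as well. All 10 round spermatid markers fell in both genotypes (9 in the knockout under quantile normalization, where Tssk1 lost the call at -0.26, adjusted p = 0.289 in limma), and their summed level was 1891 to 2090 TPM without heat in wild type, 1879 to 2005 TPM without heat in the knockout, 40.8 to 152 TPM after heat in wild type, and 419 to 786 TPM after heat in the knockout. Of 9 markers of pachytene and diplotene spermatocytes, 8 fell in both genotypes, with sums of 6544 to 7348, 6427 to 7028, 1485 to 2081 and 3454 to 4392 TPM in the same order. All 12 Sertoli cell markers rose in both, with sums of 1430 to 1652, 1833 to 2421, 11398 to 13842 and 5216 to 7393 TPM. All markers of Leydig cells (8), macrophages (9), endothelium (5) and peritubular myoid cells (6) rose in both genotypes, except that Cnn1, a myoid marker, lost its call in the knockout under median-of-ratios scaling and quantile normalization (adjusted p = 0.0728 and 0.0617 in limma). Of 7 tested spermatogonia markers 6 rose in wild type and 5 in the knockout, and of 8 early meiotic markers 7 and 6. Of 10 elongating spermatid markers, 4 rose and 3 fell in wild type and 10 rose in the knockout, whereas under quantile normalization 0 rose and 7 fell in wild type and 5 rose and 1 fell in the knockout. Most genes of the CREM list are among the elongating spermatid markers, so these are not separate results. No marker of these cell type lists was at 0 in every library of a group. Of 871 X-linked genes, 65.9% rose in wild type, beside 46.6% of 17745 autosomal ones, and Taf7l is X-linked. The part of these shifts in the members' levels was not tested.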

How the data were processed

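Whole testes of C57BL6 mice were profiled by messenger RNA sequencing (TruSeq stranded mRNA kit, Illumina HiSeq), per the labels' protocols. The submitters' processing notes name STAR and mm10, and for the annotation and the quantification tool nothing is given in the sources used here. Deposited levels are TPM (scaled by transcript length and library total) made by the authors, so read depth and counting error are unknown and precision was judged from the 21 replicates.

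Values were analysed as log2(TPM + 1), with a pseudocount of 1 TPM. Of 55573 rows, 18977 averaged 1 TPM or more and were fitted with limma 3.58.1 in R 4.3.3 (1 model of 4 group means, empirical Bayes moderation with a trend). Benjamini-Hochberg adjustment ran over all 18977 genes in each of 5 comparisons, and a gene was called at an adjusted p under 0.05. Fold changes are ratios of mean TPM, and log2 differences use log2(TPM + 1), so the change of low genes is understated. Intervals cover 95%. Before use, the model was tested on simulated data with few changed genes and the same spread in every group. That test does not cover data where most genes change or where the groups differ in spread.

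The members and the gene lists were chosen with earlier results of these data known. Besides the 10 members and their paralogs, a gene is named from a list where its rise or fall was among the 2 largest called in a comparison. For likeness, the 2 genes with the smallest root mean square difference of log2(TPM + 1) from a member are named, each gene being set relative to its unheated wild-type mean. Outside these rules, Mageb4 and Crisp1 are named as checks of the libraries. Hist1h1t and Cnn1 are named because they lost a call under another scaling. Taf7l2 and Camk4 are marked as chosen after their values were seen. Alternatives were other pseudocounts, filters, scalings, fits of only the groups compared, a replicate block and leaving out each library. A ratio and values of 1 paralog are not reported here.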

Additional observations from a re-analysis of the deposited data

Results flagged for a closer look

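For 9 of the 10 members the heat effect differed between the genotypes by a test of the difference itself (limma, adjusted over 18977 genes), beside 80.7% of all genes tested, so this count is near that share. On the log2(TPM + 1) scale, knockout minus wild type, it was 4.23 for Fhl5, 2.65 for Sox30, 1.24 for Rfx2, 1.05 for Tcfl5, 0.82 for Crem, 0.70 for Ovol1, 0.61 for Tbpl1 and 0.36 for Brdt, and -1.22 for Taf7l. A library far from its group was found in 2 of the 40 groups of values examined, and chance alone flags about 1 in 20, which gives 2. The Tcfl5 level of unheated wild-type replicate 1 was 218.6 TPM, with the other 5 between 224 and 228 TPM. The Taf7l level of unheated knockout replicate 6 was 24.42 TPM, with the other 5 between 21.4 and 22.2 TPM.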

How the results depend on the processing

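Of 1595 log2 differences of members recomputed under the alternatives, 1592 kept their side of the threshold, and no called difference reversed. Differences that were not called could change sign. Examples are Fhl5 after heat in the knockout (-0.12 to 0.05) and Mybl1 between the heated genotypes (-0.18 to 0.08). The other 3 lost the call. All 3 were lost under quantile normalization: Sox30 after heat in the knockout (-0.20), Ovol1 between the heated genotypes (0.09) and the Ovol1 difference of heat effects (0.26). All 320 recomputed counts of members called stayed within 1.5 times the reported count. Ovol1 gave no value under the filter at a mean of 5 TPM. Leaving out heated wild-type replicates 1 and 3 together was chosen after seeing the data. The log2 ratios were recomputed only with pseudocounts of 0.1 and 5 TPM. Of these 48 values, 21 moved by more than the spread between replicates. Replicate numbers did not pair the samples: over 19 same-numbered pairs the correlation of deviations ran from -0.228 to 0.314, was over 0.1 in 4, and 3 correlated best with their own number. With the replicate block no member changed its call, and genes called lower without heat went from 16 to 8. The counts over all genes moved mainly between the unheated genotypes, where 237 were higher and 16 lower. Higher genes there numbered 444 with a pseudocount of 0.1 TPM, 86 with one of 5 TPM, 66 with no filter, 44 under quantile normalization, 1175 with only those groups fitted and 143 without heated wild-type replicates 1 and 3. Lower genes numbered 10 with a pseudocount of 0.1 TPM, 6 with the filter at 5 TPM, 26 under quantile normalization, 137 with only those groups fitted and 10 without the same replicates. Leaving out 1 library gave 15 to 468 higher and 4 to 23 lower. With no filter, 13516 genes were called higher after heat in wild type. TPM keeps no depth, so differences near 1 TPM, such as those of Ovol1, have no counting error attached.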
